A study of Mus musculus with 6 samples.

Results

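Skeletal muscle contracts when a voltage change in the transverse tubule opens calcium release channels in the sarcoplasmic reticulum, a step called excitation-contraction coupling, and 10 genes of this machinery were followed here out of 27366 features in the deposited gene table. They were chosen by name: Cacna1s, Cacnb1 and Cacng1, which encode the pore-forming, beta and gamma subunits of the dihydropyridine receptor of the transverse tubule; Stac3, an adaptor of that receptor; Ryr1, the calcium release channel; Jph2 and Trdn, which encode junctophilin 2 and triadin of the junction between both membranes; Casq1 and Casq2, which encode the calcium-storing calsequestrins; and Atp2a1, the calcium pump SERCA1 that refills the store. All 10 were found in the table, each in 1 row, and all 10 had reads in every library.

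In adult muscle the dihydropyridine receptor senses voltage and opens Ryr1 by direct contact, junctophilins hold the membranes together, triadin links Ryr1 to calsequestrin, and SERCA pumps return calcium to the reticulum. Proliferating myoblasts are known to hold little of this apparatus, and its genes are switched on as the cells leave the cell cycle, fuse and mature into myotubes. Casq1 and SERCA1 are the main forms of adult fast fibres, while Casq2 is the cardiac form, which developing and slow skeletal muscle also use.

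The libraries came from mouse satellite cells, which repair skeletal muscle, labelled as day 4 and grown with fetal bovine serum and bFGF. The labels put 3 libraries in an Islr knockout group (genotype "ko") and 3 in a control group, and nothing else separates the groups in the labels; the series design text speaks of sorting by the presence or absence of Islr. The sources used here do not give how Islr was deleted, the age of the mice, or whether libraries came from separate mice or cultures, so p-values measure only the spread between these libraries, which may be partly technical. Library totals ran from 16456917 to 20531276 reads, and values are scaled reads: gene counts that the authors divided by 1 size factor per library.

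Islr, which encodes a secreted leucine-rich repeat protein, had 256.7, 7.4 and 10.9 scaled reads under the label Islr knockout (1, 2 and 3) and 181.1, 12.8 and 1579.3 under the label control. The value of the library labelled Islr knockout 1 was above 2 of the 3 control values and goes against its label. The library labelled control 2, at 12.8, lay beside the libraries labelled Islr knockout 2 and 3 and below the other controls, so its value does not bear out its label either. The groups are therefore named below by their labels only. Which exons were removed is unknown here, and reads over the whole gene do not settle the point.

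The promoter window of a gene shows what stands before its start. Whether letters found there bear on the levels was not tested. Windows of 300 bases (250 before to 50 after the annotated start) were found in RefSeq on GRCm38.p6 for 7 of the 10 genes; Cacng1, Stac3 and Trdn had no entry. The letters CAGCTG are a form of the E-box that myogenic factors such as MyoD can bind. They stood in the windows of 4 of the 7 genes (Cacna1s, Atp2a1, Casq1 and Jph2). Counted by window this was 5 of 9, with 2 overlapping windows of Jph2 among the 5, and 16.3% of all 32851 windows. Of MEF2-type sites, the letters CTA, then 4 bases of any kind, then TAA, on either strand, stood in the window of Casq2 and in 7.98% of all windows. The same with TAG at its end stood in none of the 7 genes' windows and in 3.69% of all. Of 2 further motifs searched on both strands, CAGGTG stood in the window of Casq1 (20.2% of all windows) and CATTCC, the TEAD-type MCAT element, in that of Cacna1s (14.7% of all windows). A match is a run of letters and not a site, and Ryr1 and both windows of Cacnb1 held none of these. The windows below are 1 for each gene with a CAGCTG or MEF2-type match, which is in capitals, each 5′ to 3′ on the strand of its gene. The match begins 123 bases before the start in Cacna1s (chr1:136052561-136052860, plus strand), 55 bases before it in Atp2a1 (chr7:126463024-126463323, minus strand), 195 bases before it in Casq1 (chr1:172219846-172220145, minus strand), 69 bases before it in Casq2 (chr3:102086165-102086464, plus strand) and 9 bases before it in Jph2 (chr2:163397944-163398243, minus strand). A second Jph2 window, which overlaps the first (chr2:163397924-163398223, minus strand), holds the same match 29 bases before its own start and is not printed.
Cacna1s: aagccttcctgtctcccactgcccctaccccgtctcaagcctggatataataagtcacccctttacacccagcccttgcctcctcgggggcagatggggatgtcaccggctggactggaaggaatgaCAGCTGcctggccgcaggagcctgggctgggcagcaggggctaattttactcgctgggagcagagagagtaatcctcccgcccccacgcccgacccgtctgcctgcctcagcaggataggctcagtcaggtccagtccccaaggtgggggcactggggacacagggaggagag
Atp2a1: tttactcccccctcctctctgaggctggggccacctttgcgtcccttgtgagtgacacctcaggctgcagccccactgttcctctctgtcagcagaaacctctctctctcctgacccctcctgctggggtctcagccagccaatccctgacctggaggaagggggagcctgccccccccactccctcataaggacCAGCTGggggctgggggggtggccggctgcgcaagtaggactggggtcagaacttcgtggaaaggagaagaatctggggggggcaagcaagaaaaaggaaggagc
Casq1: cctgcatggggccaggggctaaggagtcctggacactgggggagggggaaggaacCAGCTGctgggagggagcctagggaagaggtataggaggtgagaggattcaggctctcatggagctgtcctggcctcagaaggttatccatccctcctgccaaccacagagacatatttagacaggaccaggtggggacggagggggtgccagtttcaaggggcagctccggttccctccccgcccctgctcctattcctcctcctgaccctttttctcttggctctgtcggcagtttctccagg
Casq2: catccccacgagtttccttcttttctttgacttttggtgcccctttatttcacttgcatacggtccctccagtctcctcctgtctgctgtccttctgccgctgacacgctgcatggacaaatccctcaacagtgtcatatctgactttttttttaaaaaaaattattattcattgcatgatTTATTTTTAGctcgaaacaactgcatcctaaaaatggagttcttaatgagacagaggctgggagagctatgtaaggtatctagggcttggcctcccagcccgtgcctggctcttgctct
Jph2: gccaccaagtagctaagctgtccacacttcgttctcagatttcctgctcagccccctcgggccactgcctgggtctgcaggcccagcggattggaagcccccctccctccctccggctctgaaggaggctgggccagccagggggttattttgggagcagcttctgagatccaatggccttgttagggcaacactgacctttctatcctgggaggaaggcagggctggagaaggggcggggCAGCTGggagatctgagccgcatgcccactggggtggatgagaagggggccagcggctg

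The first comparison set the libraries labelled Islr knockout against those labelled control. No gene of the 10 differed beyond the spread between libraries: limma, fitted over the 20344 genes that averaged 1 scaled read or more, called 0 of the 10 and 0 of all genes (0%), with an adjusted p of 1 for each of the 10. At an unadjusted p under 0.05, limma passed 0 of the 10 and 1.36% of all genes tested. The edgeR quasi-likelihood test and DESeq2 on the recovered reads also called 0 of the 10 and 0 genes in all, with 162 and 318 genes at an unadjusted p under 0.05. Both groups overlapped in all 10 genes, whereas 4.76% of all genes tested had groups that did not overlap. The median log2 fold change was -0.05 over the 10 genes, with 5 above 0 and 5 below, and 0.03 over all genes tested. These estimates rest on single libraries. Without the library labelled Islr knockout 1, 0 of the 10 fold changes were above 0, and likewise without control 2. These are the libraries whose Islr goes against the label, but other libraries weighed as well. Without Islr knockout 2, 9 of the 10 were above 0, without Islr knockout 3, 6, and without control 1 or control 3, 8. Limma called none of the 10 in any of these fits. Without control 2, Stac3 alone of the 10 passed an unadjusted limma threshold of 0.05, as did 520 of all 20514 genes tested in that fit. Its log2 fold change there was -1.23, with a limma adjusted p of 0.9999.

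The voltage-sensing receptor came first in the chain. Cacna1s (ENSMUSG00000026407, chromosome 1 from 136052750 to 136119822 on GRCm38, plus strand), whose protein is the voltage sensor itself, had 3845.9, 51.7 and 278.7 scaled reads in the libraries labelled Islr knockout 1, 2 and 3, and 2026.5, 3.5 and 518.2 in those labelled control 1, 2 and 3. Both libraries of number 1 were high, both of number 2 were low, and the groups overlapped. Its log2 fold change was 1.19 (95% interval -6.16 to 8.55, limma adjusted p = 1). The lowest value rests on 3 reads, and the highest library held 1100.1 times the lowest (95% exact interval 376.1 to 5337.0, counting error only). Its exons share 1309 bases with Gm37759 on the opposite strand.

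Cacnb1, the beta subunit that brings the receptor to the membrane, had 3178.5, 288.8 and 582.5 scaled reads in the libraries labelled Islr knockout 1, 2 and 3, and 2633.1, 221.4 and 1173.6 in those labelled control. Cacng1, the gamma subunit, had 4377.5, 393.0 and 689.7 in the libraries labelled Islr knockout 1, 2 and 3, and 5019.5, 243.6 and 2815.1 in those labelled control. Stac3, the adaptor that the receptor needs to reach the triad and to couple, had 1721.6, 524.9 and 1028.6 in the libraries labelled Islr knockout and 2149.8, 405.5 and 2424.8 in those labelled control. In these 3 genes the library labelled control 2 was the lowest of the 6, and the library labelled Islr knockout 3 lay below control 3. Their log2 fold changes were -0.12 (interval -3.25 to 3.01), -0.51 (interval -4.30 to 3.27) and -0.40 (interval -2.22 to 1.43) for Cacnb1, Cacng1 and Stac3 (limma adjusted p = 1 for each).

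Ryr1 (ENSMUSG00000030592, chromosome 7 from 29003344 to 29125179, minus strand), the release channel opened by that receptor, had 9708.8, 533.3 and 1203.6 scaled reads in the libraries labelled Islr knockout 1, 2 and 3, and 5597.2, 548.9 and 1986.7 in those labelled control. The number 2 libraries nearly coincided, at 0.972 times the control level, while the number 1 and 3 pairs lay apart in opposite directions (1.73 and 0.606 times). Its log2 fold change was 0.01 ± 1.38 (SE, n = 3 each) with an interval from -3.47 to 3.49, the estimate nearest to 0 among the 10 (limma adjusted p = 1). With the replicate block the interval was -0.63 to 0.65 for Ryr1 and -0.77 to 0.53 for Cacnb1. The widest of the 10 in that fit was -2.34 to 3.58, for Casq2.

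Jph2, the membrane tether, was the steadiest of the 10. It had 11196.5, 3420.9 and 5423.5 scaled reads in the libraries labelled Islr knockout 1, 2 and 3, and 12410.9, 4596.1 and 9587.4 in those labelled control, so its highest library held 3.6 times its lowest. It was also the only one of the 10 with a lower value in the library labelled Islr knockout within all 3 numbers, at 0.902, 0.744 and 0.566 times the control; of all genes tested, 12.1% were lower within every number. None of the 10 was higher within every number, as 12.2% of all genes were. The log2 fold change was -0.47 ± 0.50 (SE, n = 3 each; limma adjusted p = 1). With the replicate block, the estimate had an SE of 0.20 and an unadjusted limma p of 0.0472, with an adjusted p of 0.9204, and 4.59% of all genes reached an unadjusted p under 0.05 in that fit. Trdn, the triadin gene, had 876.2, 21.2 and 99.6 in the libraries labelled Islr knockout and 375.5, 1.2 and 346.0 in those labelled control, where the lowest value is 1 read. The groups overlapped, and its log2 fold change was 0.93 (interval -5.56 to 7.43, limma adjusted p = 1).

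**Figure D1:**
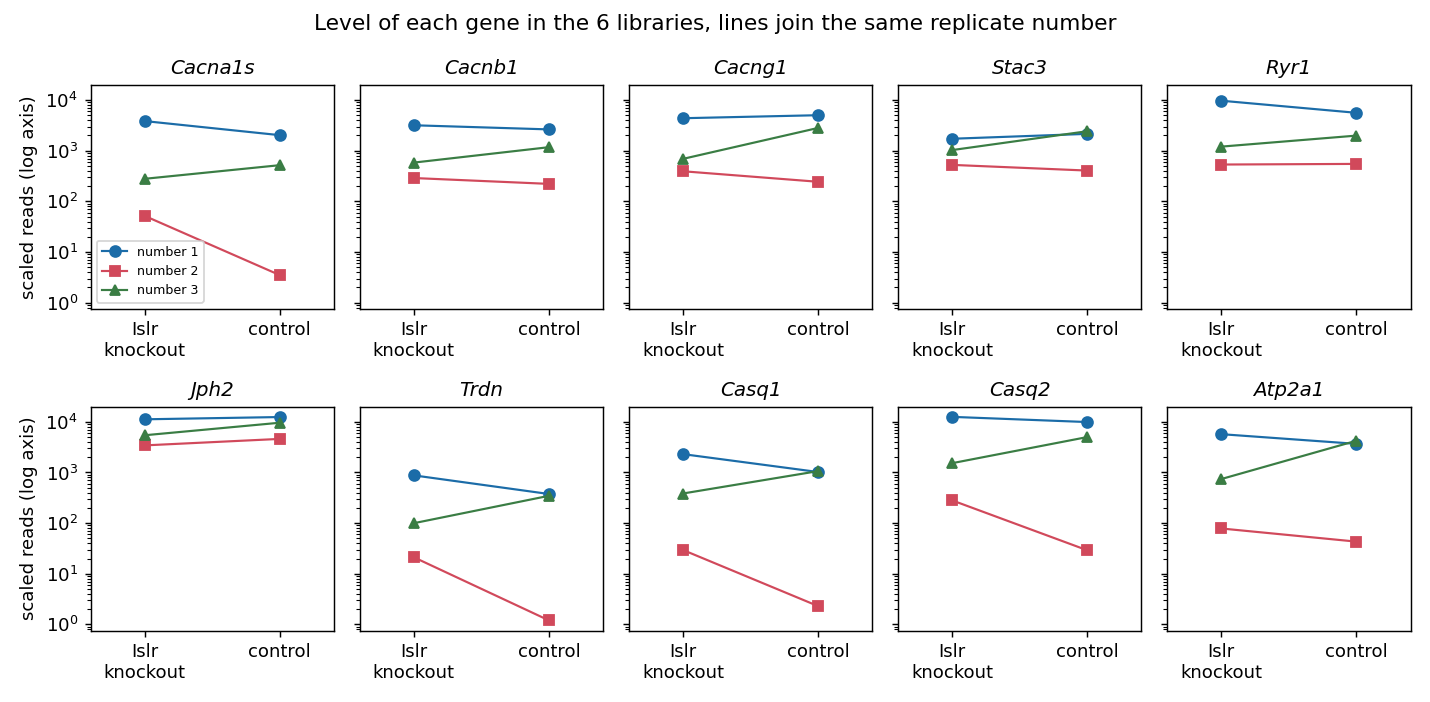
Scaled reads (log axis) of the 10 genes in each library, with the libraries labelled Islr knockout on the left of each panel and those labelled control on the right; lines join libraries of the same replicate number. The number 2 libraries (squares) lie lowest in all 10 genes, and in number 3 (triangles) the library labelled Islr knockout lies below its control in each.

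Both calsequestrin genes spanned a wide range. Casq2 had 12515.3, 281.4 and 1524.1 scaled reads in the libraries labelled Islr knockout 1, 2 and 3, and 9889.0, 29.1 and 4996.1 in those labelled control. Casq1 had 2301.1, 29.5 and 384.2 in the libraries labelled Islr knockout and 1019.9, 2.3 and 1062.8 in those labelled control, where the lowest value rests on 2 reads. The library labelled Islr knockout 1 was the highest for both and the library labelled control 2 the lowest. Log2 fold changes were 0.62 (interval -6.40 to 7.63) for Casq2 and 0.97 (interval -6.57 to 8.51) for Casq1 (limma adjusted p = 1 for each).

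Atp2a1 (ENSMUSG00000030730, chromosome 7 from 126445858 to 126463108, minus strand), the pump of fast fibres, had 5699.8, 78.4 and 740.7 scaled reads in the libraries labelled Islr knockout 1, 2 and 3, and 3668.5, 43.1 and 4227.4 in those labelled control. The number 3 libraries differed most, with the library labelled Islr knockout at 0.175 times its control. The log2 fold change was -0.34 (interval -6.73 to 6.05; limma adjusted p = 1). Its exons share 763 bases with Rabep2 on the opposite strand. Exons of Ryr1 likewise share 864 bases with Gm26604 and 50 with Gm44408, those of Casq1 156 with Gm17224 and those of Cacnb1 80 with Gm11629. As strand handling is not given, reads there cannot be told apart from those of the partner, as for Cacna1s and Gm37759.

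In the authors' deposited table, the log2 fold change, knockout over control, was 0.713 for Cacna1s, 0.493 for Ryr1, 0.381 for Casq1 and 0.464 for Trdn, and -0.605 for Stac3, -0.565 for Cacng1, -0.408 for Jph2 and -0.284 for Atp2a1. It was 0.0075 for Cacnb1 and -0.0586 for Casq2, on the other side of 0 from the limma estimates. The fold change in the authors' deposited table equals the log2 ratio of group means, which the highest library weighs on most, while limma averages log values. The adjusted p in the authors' deposited table was 0.9998 for all 10.

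Pair by pair, the genes did not move one way. In number 1, 7 of the 10 were higher and 3 lower in the library labelled Islr knockout (52.1% of all genes tested were higher there). Within number 2, 8 were higher and 2, Ryr1 and Jph2, were lower (48.1% of all genes were higher). In number 3 all 10 were lower (50.7% of all genes were higher). The median difference over the 10 genes was 0.49, 0.77 and -1.35 on the log2 scale in numbers 1, 2 and 3, against 0.02, 0.00 and 0.01 over all genes tested. With 1 library of each label per number, the pairs have no replicate of their own and these differences carry no test.

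**Figure D2:**
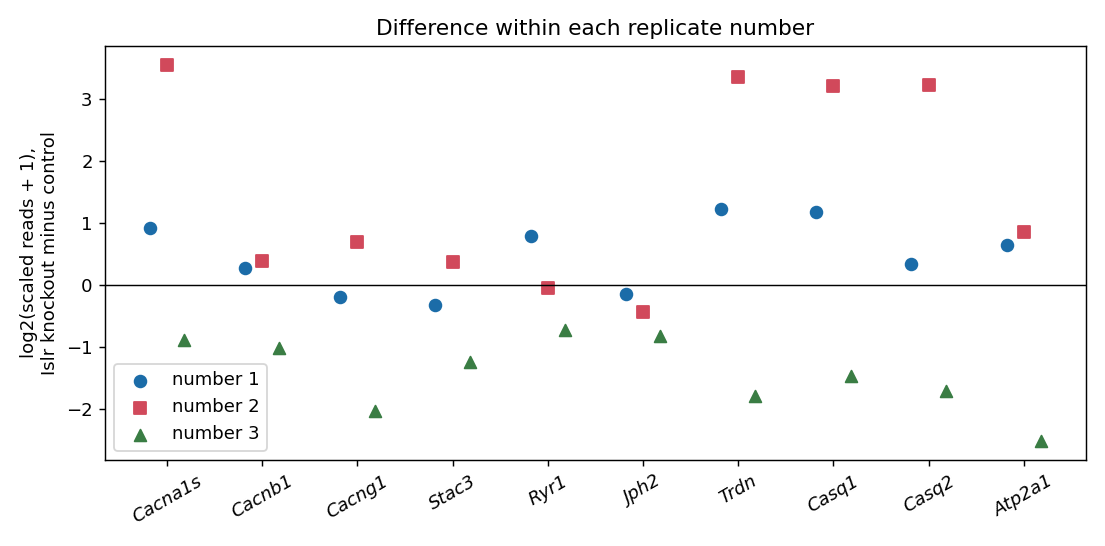
Difference in log2(scaled reads + 1), Islr knockout minus control, within each replicate number for the 10 genes; each point is 1 pair of libraries. All 10 points of number 3 lie below 0, from -0.72 for Ryr1 to -2.51 for Atp2a1, while those of number 2 reach 3.55 for Cacna1s.

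The low libraries differed in size more than in order. Cacna1s stood at 14.8 times the control in number 2, Trdn at 18.2 times, Casq1 at 12.7 times and Casq2 at 9.66 times, but the control library of that pair held only 3, 1, 2 and 25 reads of these genes. In number 1 the same 4 genes stood at 1.90, 2.33, 2.26 and 1.27 times the control, while Stac3, Cacng1 and Jph2 stood at 0.801, 0.872 and 0.902 times. Myog, the transcription factor that marks myoblasts entering differentiation, stood at 0.858 times the control in that pair.

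A further comparison of libraries with nearly equal Myog shows that the genes do not keep a fixed ratio to it. The libraries labelled control 3 and control 1 held 43260.6 and 43369.9 scaled reads of Myog, yet Cacna1s in control 3 was 0.256 times its level in control 1, Ryr1 0.355 times, Cacnb1 0.446 times, Casq2 0.505 times and Cacng1 0.561 times. Jph2 was at 0.772 times and Trdn at 0.921 times, while Casq1, Stac3 and Atp2a1 were at 1.04, 1.13 and 1.15 times. These are single libraries of 1 group, and the differences have no test.

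**Figure D3:**
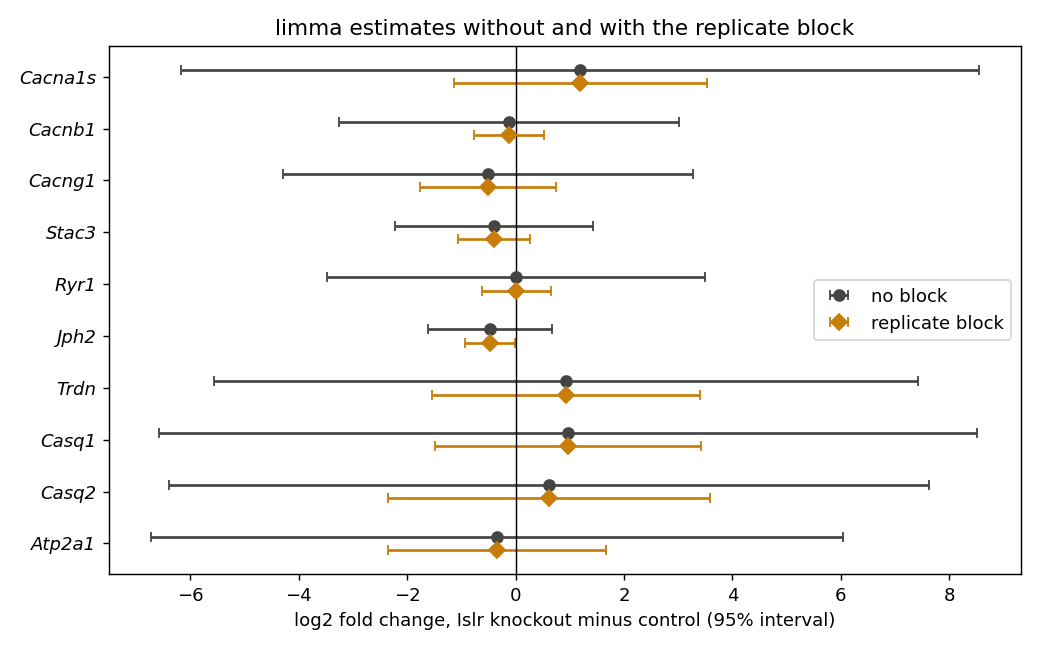
limma log2 fold change, Islr knockout minus control, with its 95% interval for each of the 10 genes, without a block (circles) and with the replicate number as a block (diamonds). Without the block every interval crosses 0; with it the intervals narrow and that of Jph2 ends just below 0 at -0.007, before adjustment.

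The replicate numbers 1 to 3 occur in both groups, and most of the spread of these genes went with them. Of the sum of squares of log2(scaled reads + 1) over the 6 libraries, the number took between 84.6% (Trdn) and 96.1% (Ryr1), with a median of 88.6%, and the genotype label at most 11.1% (Jph2), with a median of 2.2%. Over all genes tested the medians were 63.5% for the number and 7.8% for the label. With 3 numbers and 2 labels, the number can take up more of any spread, so its share and the label's are not on the same footing. Both number 2 libraries lay below the other 4 in all 10 genes, as they did in 13.6% of all genes tested, and both number 1 libraries lay above the other 4 in 7 of the 10 (13.2% of all genes), the exceptions being Stac3, Casq1 and Atp2a1, where control 3 came between or above them. The highest and lowest library were apart by a median of 5.68 on the log2 scale over the 10 genes and 1.62 over all genes tested.

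A moderated F-test of the replicate number in limma, with the genotype label in the model, called 5 of the 10 genes and 6.35% of all genes tested (Benjamini-Hochberg adjusted p under 0.05). These were Ryr1 (adjusted p = 0.005205), Cacnb1 (0.005838), Jph2 (0.02348), Stac3 (0.02576) and Cacng1 (0.04581). Cacna1s, Atp2a1 and Casq1 were just outside, at 0.05365, 0.05365 and 0.05577, with Trdn at 0.07018 and Casq2 at 0.1028. The 5 called genes spanned 1.86 to 4.36 on the log2 scale between their highest and lowest library, and the 5 not called 7.01 to 9.74. The count rests on single libraries and moved when 1 was left out, which leaves 1 library under that number. It was 10 when only genes averaging 10 or more were fitted, where 795 of 14280 genes were called. In DESeq2 it was 10, with 2658 genes called in all, and in edgeR 4, with 514 of 14214.

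**Figure D4:**
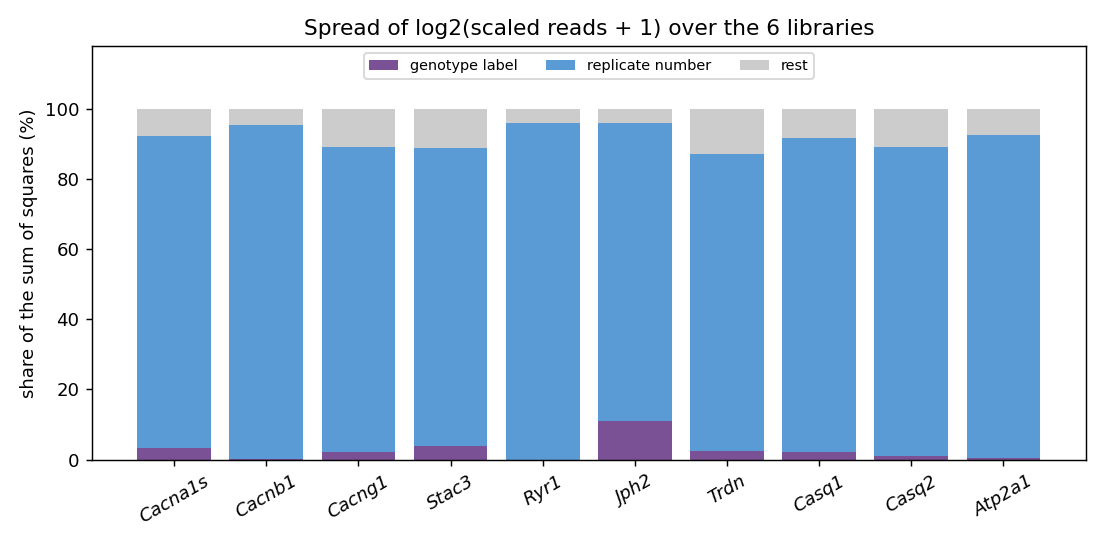
Share of the sum of squares of log2(scaled reads + 1) over the 6 libraries that goes with the genotype label, the replicate number and the rest, as stacked bars for the 10 genes. The number takes from 84.6% to 96.1% of each bar; the label's share is largest in Jph2 at 11.1%.

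Number 1 minus number 2 gave the largest differences. Ryr1 was higher in number 1 by 3.77 ± 0.34 on the log2 scale (SE; limma adjusted p = 0.003985), Cacnb1 by 3.51 ± 0.35, Cacng1 by 3.92 ± 0.62, Stac3 by 2.06 ± 0.36, Jph2 by 1.57 ± 0.25 and Cacna1s by 7.50 ± 1.08 (adjusted p = 0.04678). These 6 of the 10 rose in number 1 against number 2, where 2.65% of all genes tested were called higher and 0.58% lower. Casq1 (7.25 ± 1.13), Casq2 (6.91 ± 1.28), Trdn (6.37 ± 1.19) and Atp2a1 (6.27 ± 0.92) did not pass (limma adjusted p from 0.0513 to 0.1046). Between numbers 1 and 3, Ryr1 and Cacnb1 passed as higher in number 1 (2.25 ± 0.34 and 1.81 ± 0.35; 0.919% of all genes were called higher). Between numbers 3 and 2, Ryr1, Cacnb1 and Stac3 passed as higher in number 3 (1.51 ± 0.34, 1.71 ± 0.35 and 1.77 ± 0.36; 2.72% of all genes were called higher and 1.48% lower). The labels do not say what the numbers mark.

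Per kilobase of the longest coding transcript, the genes were not equally abundant. In the library labelled Islr knockout 1, the highest for most of them, Casq2 led with 4896 scaled reads per kilobase, before Cacng1 with 3505, Jph2 with 2659, Atp2a1 with 1639 and Casq1 with 1246. Stac3 (961.8), Cacnb1 (935.9), Ryr1 (632.2), Cacna1s (615.2) and Trdn (194.1) were lower. With the exon length given in the deposited table, which for Ryr1 is 55671 bases against 15358 for the transcript, Cacng1 came before Casq2 and Atp2a1 before Jph2, and the order of the other 6 was the same. In the library labelled control 2, where all but Ryr1 and Jph2 had their lowest value, the order was another: Jph2 stood at 1091 per kilobase, Stac3 at 226.6 and Cacng1 at 195.0, while Casq2 was at 11.4, Casq1 at 1.262, Cacna1s at 0.5593 and Trdn at 0.2582. As these are bulk libraries, fewer cells that hold a transcript and less of it per cell cannot be told apart.

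Log2 ratios between partners, in which the scaling of a library largely cancels, overlapped between the groups. Each ratio is of scaled reads + 1 per kilobase. The added 1 lowers a ratio over a gene with few reads, such as Casq1 with 2 reads in the library labelled control 2. Casq2 stood above Casq1 in every library, by 1.97, 2.74 and 1.52 on the log2 scale per kilobase in the libraries labelled Islr knockout 1, 2 and 3, and by 2.81, 2.71 and 1.76 in those labelled control. The ratio of Jph2 to Jph1, its paralog, was 3.53, 4.49 and 4.57 against 4.49, 4.39 and 4.62, and was steady in all libraries but Islr knockout 1. Atp2a1 lay below Atp2a2, the pump of slow muscle and non-muscle cells, in every library, by -1.22, -6.47 and -3.25 in the libraries labelled Islr knockout and -1.51, -7.64 and -0.48 in those labelled control.

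Ryr1 and Cacna1s, the 2 sides of the coupling contact, were close to equal per kilobase where both were high: the log2 ratio was 0.04, 2.05 and 0.81 in the libraries labelled Islr knockout and 0.17, 5.64 and 0.64 in those labelled control. In the library labelled control 2 the ratio rests on 3 reads of Cacna1s. Cacnb1 to Cacna1s ran likewise, at 0.61, 3.34 and 1.94 against 1.26, 6.51 and 2.06. Ryr1 exceeded Ryr3, a paralog of immature muscle, by 9.50, 6.58 and 6.48 against 9.16, 7.38 and 5.52. That ratio rests on few reads, as Ryr3 had 12.5, 4.6 and 12.6 scaled reads against 8.9, 2.3 and 42.6. Over these 6 ratios, exact two-sided permutation tests over libraries (n = 3 each) gave p from 0.6 to 0.9, where 0.1 is the smallest such a design allows, and 0.9 for each after Benjamini-Hochberg adjustment. Within numbers, Cacnb1 to Cacna1s was lower under the label Islr knockout in all 3 pairs, by -0.65, -3.17 and -0.12, and the other 5 ratios did not keep 1 direction. An exact two-sided paired permutation test over the 3 pairs, added after seeing the data, gave p = 0.25 for that ratio, the smallest that 3 pairs allow, and 0.5 to 1 for the others. The mean difference of Cacnb1 to Cacna1s was -1.31, and 0.30 without the library labelled control 2.

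Among 53 further genes of the triad and of calcium handling, 51 averaged 1 or more. Of these, limma called 0 higher and 0 lower under the label Islr knockout, and 1 had an unadjusted p under 0.05 (Itpr2, named after its value was seen; 421.0, 348.7 and 503.9 in the libraries labelled Islr knockout 1, 2 and 3, and 261.1, 210.9 and 265.1 in those labelled control; log2 fold change 0.78, adjusted p = 1). The median log2 fold change was 0.03 over the 51, the same as over all genes tested. Ryr2, the cardiac release channel, was at 1.7 or less in each library, and Pln was the other gene below the minimum.

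Between numbers 1 and 2, 14 of these 51 were called higher in number 1 and 1, the beta subunit gene Cacnb2, lower (2.65% and 0.58% of all genes tested). Cacnb2, named after its value was seen, differed by -2.33 ± 0.49. Srl, the calcium-binding sarcalumenin of the reticulum, rose by 5.10 ± 0.42 on the log2 scale in number 1 (SE; limma adjusted p = 0.003985), Sypl2, a synaptophysin-like protein of the triad, by 4.86 ± 0.59 and the tubule genes Cav3, Dysf and Bin1 by 5.41 ± 0.83, 3.07 ± 0.40 and 1.66 ± 0.30. Jph1 (2.00 ± 0.39), the receptor subunit gene Cacna2d1 (1.45 ± 0.28), the store-operated channel gene Orai1 (1.65 ± 0.32) and Rrad, an inhibitor of calcium channels (1.83 ± 0.38), were also called higher in number 1. Not called were Hrc, a luminal calcium-binding protein (5.58 ± 0.88), the reticulum cation channel gene Tmem38a (3.79 ± 0.81), the triad gene Jsrp1 (1.58 ± 0.40), the pump inhibitors Sln (3.26 ± 0.99) and Mrln (2.36 ± 0.85), the cytosolic calcium buffer Pvalb (2.49 ± 1.16) and Ryr3 (1.42 ± 0.79).

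Other named partners lay closer to 0 or below it in the same contrast and did not pass. The difference was 0.59 ± 0.25 for Atp2a2, 0.36 ± 0.25 for Asph, whose locus encodes both the triad protein junctin and an enzyme, 0.65 ± 0.28 for Stim1, the calcium sensor of the reticulum, and -0.56 ± 0.23 for Fkbp1a, a protein bound to release channels. It was -1.09 ± 0.46 for Cacna1c, the cardiac-type pore subunit, and -0.72 ± 0.26 for Cacnb3, a beta subunit of other tissues; Cacnb3 was called lower in number 1 than in number 3 (-1.20 ± 0.26, limma adjusted p = 0.04816; 1.97% of all genes were called lower).

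**Figure D5:**
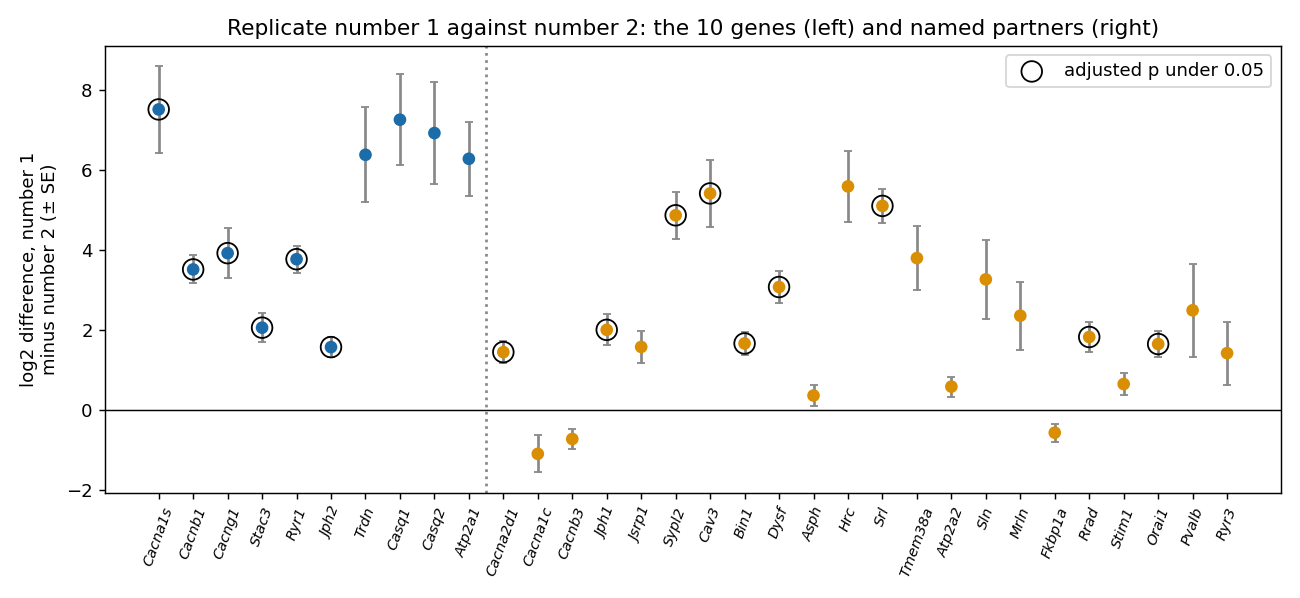
Log2 difference, replicate number 1 minus number 2, with its SE (bars) for the 10 genes (left of the dotted line) and the named partners (right); rings mark a limma adjusted p under 0.05. All 10 genes lie above 0 and 6 carry a ring, while Cacna1c, Cacnb3 and Fkbp1a lie below 0.

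The 10 genes were alike among themselves across libraries, with a median Pearson correlation of 0.94 over 45 pairs and 6 libraries. The correlation was highest between Casq2 and Trdn (0.995) and lowest between Jph2 and both Casq1 and Trdn (0.821). Of 14270 other genes averaging 10 or more, those nearest to the mean standardized level of the 10 were Afap1l1, Hhatl, the myosin light chain gene Myl6b, Filip1 and Sypl2, with r between 0.9975 and 0.9984 over the 6 libraries. A correlation of at least 0.95 was reached by 3.03% of these 14270 genes, by 13 of 51 listed partners and by 11 of 16 myotube markers. It was below 0 for 14 of the 51 partners and for 0 of the 16 myotube markers. These correlations describe 6 libraries that share replicate numbers, and they carry no test.

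Markers of myotubes moved with the 10 genes. Over 16 genes they summed to 611224.3, 40551.2 and 83069.0 scaled reads for the label Islr knockout (1, 2 and 3), and 568184.0, 33552.5 and 303220.4 for the label control; only Myh8 was at 0, in control 2. Satellite cell and myoblast markers summed to 56924.2 to 128975.3 for the label Islr knockout and 66299.7 to 136511.3 for the label control. Their largest part in number 1 was Des, with 70905, 17685.9 and 23035.9 scaled reads against 76325.4, 14090.1 and 39595.7. Of 7 such markers compared, Des alone correlated with the 10 genes at 0.95 or above (0.965), and 3 were below 0. These were Pax7 (-0.718), Myod1 (-0.375) and Vcam1 (-0.243). Myod1, the myogenic factor of activated cells, had 20942.9, 24544.4 and 18887.8 against 24224.1, 33818.2 and 32135.6. The part of either list in the levels of the 10 genes was not tested.

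Other cell types were at lower levels. Cardiac markers, which bear on Casq2 and Jph2, summed to 59.3, 72.0 and 85.4 scaled reads over 7 genes in the libraries labelled Islr knockout and 23.3 to 50 in those labelled control, with Nppa, Nkx2-5 and Myl7 at 0 in most libraries. The summed range over the libraries labelled Islr knockout was 6553.2 to 12780.5 for fibro-adipogenic markers, 405.0 to 1609.0 for endothelial, 2988.8 to 5353.0 for smooth muscle and pericyte, 107.2 to 561.6 for macrophage and 519.1 to 1505.7 for Schwann cell markers. Over the libraries labelled control it was 5325.6 to 10737.2, 416.6 to 688.7, 2709.4 to 3952.9, 153.8 to 207.1 and 518.6 to 523.3 for the same lists. In Islr knockout 2 and 3, the endothelial (1609.0 and 1492.3), Schwann cell (1505.7 and 1408.6) and macrophage (339.5 and 561.6) sums were above every control. Those of Islr knockout 1 were 405.0, 519.1 and 107.2. The fibro-adipogenic and smooth muscle sums did not part in this way, but Col1a1 and Col3a1 made up most of the former. Named after their values were seen, Pdgfra (296.1 and 417.6), Cd34 (484.4 and 1909.1) and Col1a1 (3384 and 1981.9) of that list were above every control in Islr knockout 2 and 3. The rest of that list were not. Of the smooth muscle list, only Cnn1 was (98.7 and 70.3). Limma called no gene of these lists between the labels. Dpp4, Pi16, Kcnj8, Ptprc, Itgam and Tyrobp were at 0 in some libraries. The part of these cells in the levels above was not tested.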

How the data were processed

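RNA sequencing libraries of 3 samples labelled Islr knockout and 3 labelled control were analysed. Tools in the submitters' processing notes, without their roles, are edgeR 3.18.1, DESeq2 1.16.1, HTSeq, HISAT2 2.0.5 and Trimmomatic. For strand handling and annotation the sources used here give nothing. The deposited gene table holds a signal per gene and library, per the file headers and values: counts that the authors divided by a size factor. The authors' log2 fold change stands beside these values with its p-value, raw and adjusted, per the file headers. A deposited count table covers 1031 genes and served as a check. A further 12 per-sample columns stayed unused. The column of control 1 has 2 digits exchanged against its label; the other 5 equal theirs. Gene positions equalled GENCODE M21 (GRCm38) for 26923 of 27093 Ensembl genes, the 10 genes included.

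Whole reads were recovered from the step of 1 read: 100.0% of values were whole within 0.01, and all 480 genes in both tables had the deposited count. Of the table, 36 lines of overflowing text were dropped. The main test was limma 3.58.1 (trend, robust) on log2(scaled reads + 1) for genes averaging 1 or more. It was two-sided, with Benjamini-Hochberg adjustment over all genes and a threshold of 0.05; the log scale understates changes of low genes. Counting intervals are exact (Clopper-Pearson, 95%) and cover counting error only. Deviations of same-numbered libraries correlated at 0.689, 0.633 and 0.625 over 14280 genes, so the numbers were taken to pair the libraries; this comes from the data, not the labels. Alternatives were the replicate block, edgeR 4.0.16 and DESeq2 1.42.0 on the recovered reads, other pseudocounts, filters and scalings, and leaving out libraries. The scripts were tested on simulated data. Named were the 10 genes, Islr, Myog, Myod1, 23 partners by name and the 5 genes most alike. The 10 genes and all lists were chosen with earlier results of these data known.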

Additional observations from a re-analysis of the deposited data

How the results depend on the processing

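For the label Islr knockout against control, limma called 0 genes in each alternative, edgeR 0, DESeq2 0 and DESeq2 with the replicate block 7, none of them among the 10 genes; the block changed no other call. The log2 fold change of Ryr1 turned to -0.38 with both libraries of number 1 left out. With both of number 2 left out it turned to -0.15 for Casq1, -0.69 for Casq2 and -0.28 for Trdn, and with both of number 3 left out to 0.33 for Cacnb1, 0.25 for Cacng1, 0.0256 for Stac3 and 0.74 for Atp2a1. In edgeR and DESeq2, which weigh group means, it was 0.008 and 0.0075 for Cacnb1 and -0.0575 and -0.0586 for Casq2. Leaving out 1 library, it ran from -1.19 to 0.90 for Ryr1, -1.42 to 2.99 for Cacna1s, -1.11 to 0.67 for Cacnb1, -1.83 to 0.35 for Cacng1, -1.23 to 0.0634 for Stac3, -2.50 to 1.22 for Atp2a1, -1.80 to 2.62 for Casq1, -2.003 to 2.18 for Casq2, -0.92 to -0.07 for Jph2 and -1.53 to 2.19 for Trdn; none was called. All 10 were below 0 without the library labelled Islr knockout 1 and without control 2. Above 0 were 9 without Islr knockout 2, 6 without Islr knockout 3 and 8 without control 1 or control 3. Leaving out 1 library, a setting chosen for the ratios after seeing the data, moved their differences from -0.68 to -0.07 for Casq2 to Casq1, -2.65 to 0.97 for Atp2a1 to Atp2a2, -0.82 to 1.07 for Ryr1 to Ryr3, -2.17 to 0.56 for Ryr1 to Cacna1s, -0.48 to 0.035 for Jph2 to Jph1 and -2.32 to 0.30 for Cacnb1 to Cacna1s. The count of all genes called between replicate numbers was 1291, and 566 with a pseudocount of 0.1, 3309 with no filter, 795 among genes averaging 10 or more, 514 in edgeR, 2658 in DESeq2 and 291 to 2513 without 1 library. Of the 10 genes, 5 were called, but 10 among genes averaging 10 or more, 10 in DESeq2 and 0 to 10 without 1 library. The lowest and highest counts without 1 library came from different fits for all genes and for the 10, so these ranges do not run together. Each such fit left 1 library under a number. The causes of the changed counts were not tested. Low counts limit Cacna1s, Trdn and Casq1 in the library labelled control 2, at 3, 1 and 2 reads. Its total of 16776805 reads was above the 16456917 of Islr knockout 1, where these genes were highest.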
